A study of Drosophila melanogaster with 2 samples.

Results

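Cluster 13 of the deposited clustering is a group of 137 neurons from brains of third-instar Drosophila melanogaster larvae, among 5056 listed cells. Its members are all cells, 68 in the MeOH library and 69 in the fresh library, whose deposited annotation is the number 13 alone, with no cell type name. They were set against the 3276 other cells, 1643 in the MeOH library and 1633 in the fresh library, that also carry only a number. These fall into 25 clusters, with clusters 1 and 31 left out, and are called the other cells below. Cluster 13 is called Sox14-rich after the transcription factor gene with the highest level among the 6 genes that mark it.

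Each library was made from dissociated larval brains with droplet-based 3′ chemistry, which counts UMIs (unique molecular identifiers, 1 for each captured transcript) per gene and cell. The MeOH library holds methanol-fixed cells pooled from 7 lines of the DGRP, a panel of inbred Drosophila strains: DGRP-761, DGRP-639, DGRP-502, DGRP-409, DGRP-382, DGRP-136 and DGRP-45. The fresh library holds unfixed cells of a hybrid based on DGRP-551, as the strain and fixation fields of the labels give it, although the protocols given for the sample speak of methanol and the deposited cell table calls the line of its cells M1. With 1 library per group, strain and fixation cannot be told apart, and no difference below was tested. No animal numbers are given for either library.

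Many neurons that serve the larva are born in the embryo and are remodelled at metamorphosis, when the steroid hormone ecdysone makes them withdraw axon and dendrite branches and grow adult ones. Sox14, a transcription factor with an HMG box, is induced by ecdysone through the receptor EcR and is needed for this pruning. Among the genes it switches on is Mical, which encodes an enzyme that takes actin filaments apart. Neurons born in the larva are still young at this stage, and the levels of chinmo, mamo, Imp and Syp are known to differ with the time of birth within a lineage.

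The 68 cells of cluster 13 were 2.50% of the 2715 listed cells of the MeOH library (exact Clopper-Pearson 95% interval 1.95 to 3.16%). The 69 cells in the fresh library were 2.95% of 2341 (2.30 to 3.72%), so the intervals of the MeOH and fresh shares overlap. By line the share was highest in DGRP-45, with 14 of 295 cells (4.75%, 2.62 to 7.83%), and in DGRP-136, with 20 of 449 cells (4.45%, 2.74 to 6.80%). It was lowest in DGRP-382, with 1 of 210 cells (0.476%, 0.0121 to 2.62%), and DGRP-409, with 2 of 410 cells (0.488%, 0.0591 to 1.75%). DGRP-639 had 13 of 387 cells (3.36%), DGRP-502 had 11 of 384 (2.86%) and DGRP-761 had 7 of 580 (1.21%). Intervals cover counting error only and each line stands for 1 pool of cells, so the differences between lines are a description.

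Cells of cluster 13 held more UMIs than most. Their median was 6064 UMIs per cell in the MeOH library and 13583 in the fresh library, against 3258 (MeOH) and 6457 (fresh) in the other cells. Summed over the cluster this gives 449748 UMIs in the MeOH library and 951349 in the fresh library, on which the levels below rest. A level is given as CPM, the UMIs of a gene per 1000000 UMIs summed over the cells of a class, and its 95% interval is an exact Poisson interval. The median mitochondrial share of UMIs was 2.15% (MeOH) and 1.36% (fresh) in cluster 13, against 2.14% (MeOH) and 1.38% (fresh) in the other cells. No cell barcode of cluster 13 occurred in both libraries, and 11 of all listed barcodes did. No doublet caller was run, so doublets among these cells were not removed.

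The neuronal label was checked against marker lists. The gene elav, which encodes an RNA-binding protein of neurons, had a UMI in 63 MeOH and 66 fresh cells of the cluster, and in 41.7% (MeOH) and 40.3% (fresh) of the 103 MeOH and 77 fresh glia, whose median was 4816 (MeOH) and 8822 UMIs (fresh). The synaptic vesicle gene nSyb had a UMI in 49 MeOH and 66 fresh cells of the cluster and in 14.6% (MeOH) and 9.09% (fresh) of glia. After thinning to 2000 UMIs the elav shares were 73.5% (MeOH) and 47.8% (fresh) in cluster 13 and 23.3% (MeOH) and 9.09% (fresh) in glia, and the nSyb shares 33.8% (MeOH) and 47.8% (fresh) in cluster 13 and 1.94% (MeOH) and 2.60% (fresh) in glia. The glial gene repo had no UMI in cluster 13 in either library, where 3 UMIs would be 6.67 CPM (MeOH) and 3.15 CPM (fresh). The 11 glial markers summed to 100.1 (MeOH) and 39.9 CPM (fresh) in cluster 13, against 3274 (MeOH) and 2955 CPM (fresh) in glia. Of the 10 markers of blood and other cells, 8 were at 0 in cluster 13 in each library. The 10 markers of neuroblasts and ganglion mother cells summed to 921 (MeOH) and 80.9 CPM (fresh) in cluster 13, with pros at 858 and 61.0 CPM. In the other cells they summed to 17428 (MeOH) and 11595 CPM (fresh), with pros at 17344 and 11562 CPM. The gap thus came almost all from pros. Neuroblasts and ganglion mother cells were not the comparison here, so it does not measure a lack of precursor markers. The 10 general neuronal markers summed to 3569 (MeOH) and 2762 CPM (fresh) in cluster 13 and 1142 (MeOH) and 548 CPM (fresh) in glia, against 10055 (MeOH) and 6290.5 CPM (fresh) in the other cells. Of 9 of these that could be compared with the other cells, 2 were at least 1 lower on the log2 scale in both libraries (cpx and fne) and none was higher, against 1.93% lower and 3.51% higher among all compared genes. The elav level lay below the median of the other cells in 52 of 68 MeOH and 56 of 69 fresh cells. Nearly every cell of the cluster thus carried elav, at a lower level than most other cells, and glial genes lay at a small part of their level in glia.

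All 6 marker genes were highest in cluster 13 of all 26 numbered clusters in both libraries. Since the cells were clustered on their expression, these levels describe the cluster and no test is given. Differences are given as log2((CPM + 10)/(CPM + 10)) of cluster 13 over the other cells, called the log2 ratio.

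Sox14 was at 1574 (MeOH) and 1677 CPM (fresh) in cluster 13, against 155 (MeOH) and 164 CPM (fresh) in the other cells. The intervals were 1460.4 to 1695 (MeOH) and 1595 to 1761 CPM (fresh) in cluster 13, and the fold was 10.2 in MeOH and 10.2 in fresh cells. It had a UMI in 67 of 68 MeOH and 69 of 69 fresh cells of the cluster, all but 1 MeOH cell. The share with a Sox14 UMI was 98.5% (MeOH) and 100% (fresh) in cluster 13, 44.7% (MeOH) and 55.8% (fresh) in glia and 21.2% (MeOH) and 21.9% (fresh) in the other cells. When every cell was thinned to 2000 UMIs the shares were 95.6% (MeOH) and 97.1% (fresh) in cluster 13, 26.2% (MeOH) and 20.8% (fresh) in glia and 13.8% (MeOH) and 11.6% (fresh) in the other cells. Nearly every cell of the cluster therefore carried Sox14 transcripts at a depth where most other cells and most glia showed none.

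CG31324, for which the tables used state no function, had the highest log2 ratio of the 6, 3.63 in MeOH and 3.84 in fresh cells. It was at 547 (MeOH) and 709.5 CPM (fresh) in cluster 13, against 35 (MeOH) and 40.2 CPM (fresh) in the other cells. Its next highest cluster, 25, had 142 (MeOH) and 139 CPM (fresh).

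Drep3 belongs to the family of nucleases and their regulators that share the CIDE-N domain, known from DNA fragmentation in dying cells. It was at 763 (MeOH) and 826 CPM (fresh) in cluster 13, against 122 (MeOH) and 83.0 CPM (fresh) in the other cells. The related gene Drep1 was at 171 (MeOH) and 115 CPM (fresh) in cluster 13, against 27.0 (MeOH) and 34.8 CPM (fresh) in the other cells, with log2 ratios of 2.29 in MeOH and 1.48 in fresh cells. Of the 15 genes on the list of Drep and cell death genes, 9 could be compared. Of these, 2 were higher (Drep1 and Drep3) and none was lower, against 3.51% higher and 1.93% lower among all compared genes. Higher and lower stand for a log2 ratio of at least 1 or at most -1 in both libraries. In fresh cells the Drep1 log2 ratio was 0.75 when only deep cells, defined below, served for comparison. In cluster 3, described below, Drep1 was at 97.3 (MeOH) and 139 CPM (fresh). The log2 ratio of Drep1 against cluster 3 was 0.76 in MeOH and -0.26 in fresh cells.

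The remaining markers were prage, beat-VII and rdgA. The gene prage (X: 1773719 to 1853667, plus strand, dm6) was at 496 (MeOH) and 424 CPM (fresh) in cluster 13, against 59.1 (MeOH) and 37.1 CPM (fresh) in the other cells. The gene beat-VII (3R: 26645282 to 26681966, minus strand), of the Beaten path family of immunoglobulin proteins that meet Side proteins in axon guidance, was at 314 (MeOH) and 425 CPM (fresh) in cluster 13, against 53.0 (MeOH) and 57.2 CPM (fresh) in the other cells. Of 20 compared beat and side genes only beat-VII was higher and none was lower. Among all compared genes 3.51% were higher and 1.93% lower. The diacylglycerol kinase gene rdgA (X: 8907068 to 9029476, plus strand), known from the phospholipid cycle of photoreceptors, was at 1114 (MeOH) and 734 CPM (fresh) in cluster 13, against 192 (MeOH) and 119.6 CPM (fresh) in the other cells. Of 12 compared genes of diacylglycerol and phospholipid signalling, only rdgA was higher and none was lower, beside the same 3.51% and 1.93%. Since Drep3, beat-VII and rdgA were markers of the cluster beforehand, the counts of their lists support nothing by themselves.

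**Figure D1:**
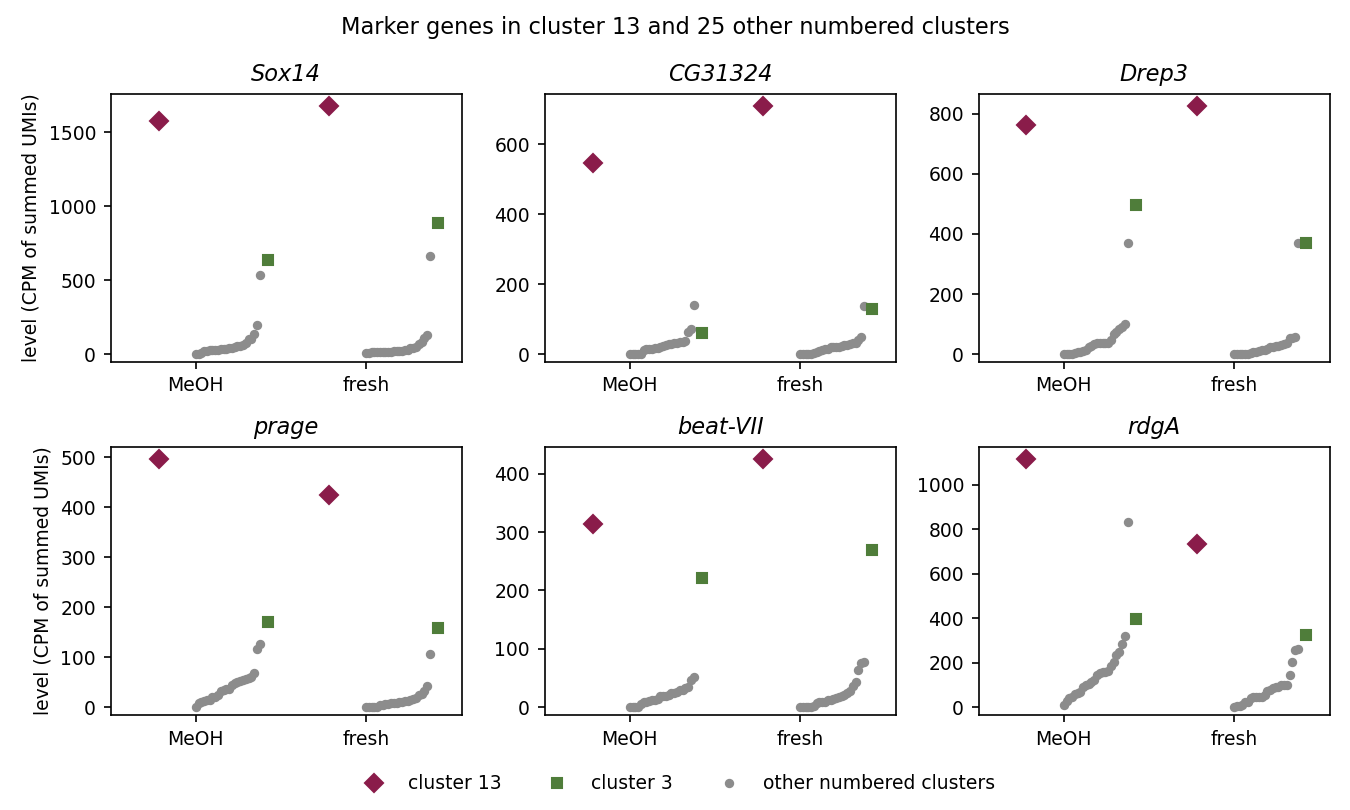
Level of the 6 marker genes in each numbered cluster (CPM of summed UMIs, vertical axis) in the MeOH and fresh libraries. The diamond is cluster 13, the square is cluster 3 and grey points are the remaining clusters, sorted by level. Cluster 13 is highest in every panel and library, with Sox14 at 1574 (MeOH) and 1677 CPM (fresh), and cluster 3 is next for Sox14, Drep3, prage and beat-VII.

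The markers varied between cells of the cluster. Sox14 ran from 0 to 3989 CPM per cell with a median of 1544 CPM in the MeOH library, and from 465 to 3763 CPM with a median of 1676 CPM in the fresh library. A prage UMI was found in 58 MeOH and 69 fresh cells, and in 27.2% (MeOH) and 31.2% (fresh) of glia. A CG31324 UMI was found in 57 MeOH and 63 fresh cells, and in 24.3% (MeOH) and 20.8% (fresh) of glia. The other 3 were missing in more cells of the cluster. An rdgA UMI was found in 56 MeOH and 55 fresh cells, and in 27.2% (MeOH) and 31.2% (fresh) of glia. A Drep3 UMI was found in 48 MeOH and 59 fresh cells, and in 3.88% (MeOH) and 1.30% (fresh) of glia. A beat-VII UMI was found in 40 MeOH and 60 fresh cells, and in 0.971% (MeOH) and 2.60% (fresh) of glia. Drep3 and beat-VII UMIs were thus rare in glia. After thinning to 2000 UMIs the shares in cluster 13 ranged from 30.9% (beat-VII, MeOH) to 73.9% (CG31324, fresh) over these 5 genes, and in glia they reached at most 17.5% (prage, MeOH).

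The levels were also compared within the lines of the MeOH library with at least 5 cells of the cluster, namely DGRP-45, DGRP-136, DGRP-502, DGRP-639 and DGRP-761. Sox14 was at 1946 CPM in DGRP-45, 1663 in DGRP-136, 1284 in DGRP-502, 1541 in DGRP-639 and 1370.5 in DGRP-761 in cluster 13. In the other cells of the same lines it was at 112 CPM in DGRP-45, 204 in DGRP-136, 201 in DGRP-502, 122 in DGRP-639 and 143 in DGRP-761. The mean was 1561 ± 261 CPM in cluster 13 and 157 ± 43.9 CPM in the other cells (SD, n = 5 lines), and the classes did not overlap. The other 5 markers were also higher in 5 of 5 lines, with no overlap. The smallest log2 ratio of any marker in these lines was 1.58, for Drep3, and the largest was 4.41, for CG31324. The lines share 1 library, so they are not independent preparations. They also hold most of the MeOH cells behind the MeOH log2 ratios. Agreement by line, here and below, is therefore partly built in.

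Of 17473 gene rows, 4246 had enough UMIs to be compared, meaning that the mean level of the classes corresponded to at least 10 UMIs in cluster 13 in each library. Of these, 149 genes (3.51%) were higher in cluster 13 and 82 genes (1.93%) were lower. Only 3 genes passed 1 in opposite directions in the libraries. The median log2 ratio over all compared genes was 0.00 in MeOH and 0.01 in fresh cells. Of the 149 higher genes, 75 were highest in cluster 13 of all 26 numbered clusters in both libraries. Deep cells are other cells with at least 4535 (MeOH) or 10738 UMIs (fresh), the 25th percentile of cluster 13. Against deep cells alone 96 genes were higher, 93 of them among the 149. Of 414 MeOH and 263 fresh deep cells, 103 MeOH and 78 fresh cells belonged to cluster 3. Among all other cells it was 184 of 1643 MeOH and 163 of 1633 fresh cells. Comparisons with deep cells thus change depth and the share of cluster 3 together.

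**Figure D2:**
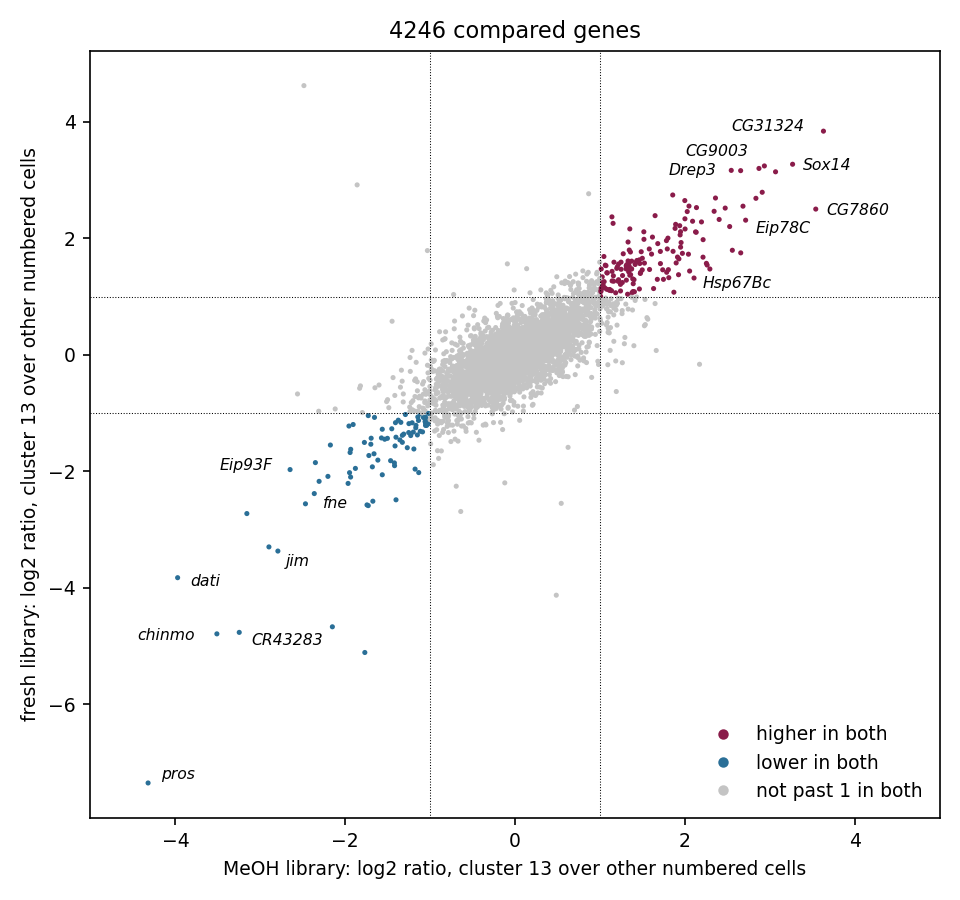
Log2 ratio of cluster 13 over the other cells for 4246 compared genes, in the MeOH library (horizontal axis) and the fresh library (vertical axis). Dotted lines mark 1 and -1, dark red points are the 149 genes higher in both libraries and blue points the 82 lower in both, with pros lowest in both at -4.32 (MeOH) and -7.35 (fresh).

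Besides the markers and the ecdysone gene Eip78C, 8 further genes led the higher genes by the smaller log2 ratio of the libraries, with no single cell holding over 25% of the UMIs. CG9003 was at 780.4 (MeOH) and 938 CPM (fresh) in cluster 13, against 93.3 (MeOH) and 89.97 CPM (fresh) in the other cells, with a UMI in 64 MeOH and 69 fresh cells of the cluster and in 35.9% (MeOH) and 35.1% (fresh) of glia. CG9005 was at 1103 (MeOH) and 770.5 CPM (fresh) in cluster 13, against 138 (MeOH) and 103 CPM (fresh) in the other cells. Ctl2, a choline transporter-like gene, was at 191 (MeOH) and 315 CPM (fresh) in cluster 13, against 21.9 (MeOH) and 26.3 CPM (fresh) in the other cells. All 3 were highest in cluster 13 of all numbered clusters in both libraries.

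The bZIP transcription factor gene vri, known from the circadian clock, was at 347 (MeOH) and 273 CPM (fresh) in cluster 13, against 57.5 (MeOH) and 46.5 CPM (fresh) in the other cells. MESR6 was at 351 (MeOH) and 643 CPM (fresh) in cluster 13, against 61.2 (MeOH) and 108 CPM (fresh) in the other cells, and its log2 ratio ran only from 2.18 to 2.35 in the 5 lines. CG9801, CG6231 and CG7860 had log2 ratios between 2.50 (CG7860, fresh) and 3.54 (CG7860, MeOH). These 5 genes were likewise highest in cluster 13 of all numbered clusters, but the CG7860 level of 469 CPM in fresh cells lay close to the 446 CPM of cluster 3. The vri level was close as well, with cluster 3 at 240 (MeOH) and 249 CPM (fresh). The log2 ratio of vri against cluster 3 was 0.52 in MeOH and 0.13 in fresh cells.

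The ecdysone and pruning list holds 22 genes, of which 18 could be compared. In cluster 13, 7 of the 18 were higher (Sox14, Eip75B, Eip74EF, Eip78C, Blimp-1, Hr39 and Mical) and 2 were lower (br and Eip93F), against 3.51% higher and 1.93% lower among all compared genes. The median log2 ratio of the 18 was 0.47 in MeOH and 0.65 in fresh cells, against 0.00 (MeOH) and 0.01 (fresh) over all compared genes. The list was drawn up with earlier results of these data known, so its counts are a description.

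Among the early ecdysone genes, the nuclear receptor gene Eip75B was at 3073 (MeOH) and 2898 CPM (fresh) in cluster 13, against 1518 (MeOH) and 1338 CPM (fresh) in the other cells. Its log2 ratios, 1.01 in MeOH and 1.11 in fresh cells, lie close to the threshold, and in the 5 lines they averaged 0.96 ± 0.02 (SD). Without cluster 3 among the other cells the log2 ratio of Eip75B in MeOH cells was 0.99. The ETS factor gene Eip74EF was at 474 (MeOH) and 459 CPM (fresh) in cluster 13, against 107 (MeOH) and 69.8 CPM (fresh) in the other cells. The nuclear receptor gene Eip78C was at 227 (MeOH) and 108 CPM (fresh) in cluster 13, against 26.1 (MeOH) and 13.8 CPM (fresh) in the other cells. All 3 had the higher level in cluster 13 in 5 of 5 lines. Eip78C had a UMI in 63.2% (MeOH) and 65.2% (fresh) of cluster 13 cells and in 50.5% (MeOH) and 45.5% (fresh) of glia. After thinning to 2000 UMIs the Eip78C shares were 38.2% (MeOH) and 15.9% (fresh) in cluster 13 and 21.4% (MeOH) and 14.3% (fresh) in glia, so the fresh share lay near that of glia.

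Of the further regulators, Blimp-1, a zinc finger repressor induced by ecdysone, was at 100.1 (MeOH) and 82.0 CPM (fresh) in cluster 13, against 15.9 (MeOH) and 8.74 CPM (fresh) in the other cells. The nuclear receptor gene Hr39 was at 136 (MeOH) and 109 CPM (fresh) in cluster 13, against 47.4 (MeOH) and 31.4 CPM (fresh) in the other cells, higher in 4 of 5 lines. The Sox14 target Mical was at 187 (MeOH) and 145 CPM (fresh) in cluster 13, against 46.5 (MeOH) and 28.6 CPM (fresh) in the other cells, higher in 5 of 5 lines. Each of the 3 had its levels in cluster 13 outside the counting interval of the other cells in both libraries.

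The receptor gene EcR did not pass the threshold, at 291 (MeOH) and 157 CPM (fresh) in cluster 13, against 157 (MeOH) and 115 CPM (fresh) in the other cells, although it was higher in 5 of 5 lines without overlap. Its partner usp was at 42.2 (MeOH) and 37.8 CPM (fresh) in cluster 13, against 31 (MeOH) and 47.6 CPM (fresh) in the other cells. The later regulator gene ftz-f1 had 1 UMI in each library, at 2.22 CPM (0.0563 to 12.4) in MeOH and 1.05 CPM (0.0266 to 5.86) in fresh cells of cluster 13. On the lower side, the zinc finger gene br was at 153 (MeOH) and 97.8 CPM (fresh) in cluster 13, against 621 (MeOH) and 428 CPM (fresh) in the other cells. Eip93F, a transcription factor gene of late metamorphosis, was at 62.3 (MeOH) and 50.5 CPM (fresh) in cluster 13, against 443 (MeOH) and 227 CPM (fresh) in the other cells. Both were lower in 5 of 5 lines, but against deep cells alone the Eip93F log2 ratio in the fresh library was -0.75, short of the threshold.

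**Figure D3:**
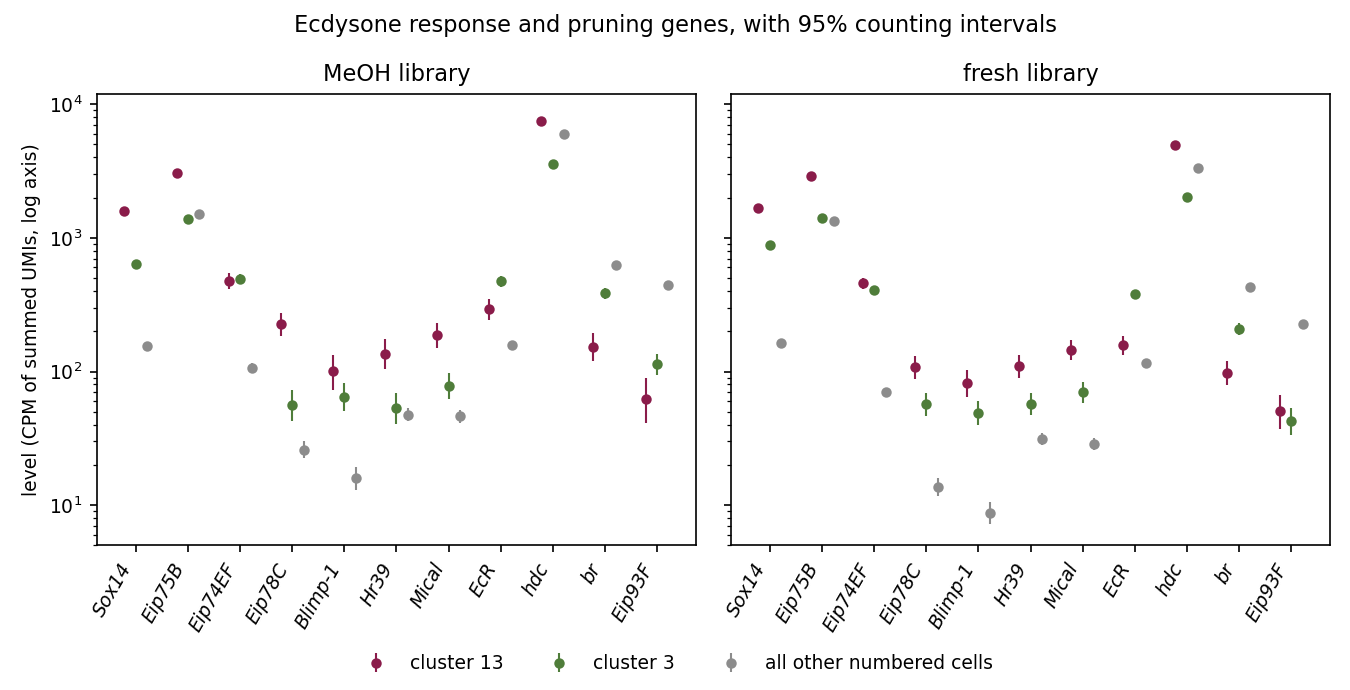
Level (CPM of summed UMIs, log axis) of 11 ecdysone response and pruning genes in cluster 13, cluster 3 and all other numbered cells, with 95% counting intervals, in the MeOH library (left) and the fresh library (right). Cluster 13 lies above both comparison classes for Sox14, Eip75B, Eip78C, Hr39 and Mical, above all other numbered cells for Eip74EF and Blimp-1, and below both for br.

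The birth-time genes split. Of the 12 on the list 8 could be compared, 2 were higher (mamo and nub) and 4 were lower (chinmo, br, dati and Eip93F), against 3.51% higher and 1.93% lower among all compared genes. The gene mamo (X: 13846116 to 13990527, minus strand), a BTB zinc finger gene that sets temporal identity in mushroom body neurons, was at 10991 (MeOH) and 7200.3 CPM (fresh) in cluster 13, against 2840.2 (MeOH) and 1654 CPM (fresh) in the other cells. Its intervals were 10686 to 11301 (MeOH) and 7031 to 7373 CPM (fresh) in cluster 13. Every cell of the cluster had a mamo UMI and lay above the median of the other cells. Across the 5 lines mamo was at 9848 to 16326 CPM in cluster 13 and 2364 to 3360.5 CPM in the other cells, with no overlap.

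The POU factor gene nub was at 68.9 (MeOH) and 64.1 CPM (fresh) in cluster 13, against 8.0 (MeOH) and 7.22 CPM (fresh) in the other cells, but only 11 MeOH and 17 fresh cells of the cluster had a UMI. The RNA-binding protein gene Imp, high in early-born neurons of several lineages, was at 1812 (MeOH) and 909 CPM (fresh) in cluster 13, against 966 (MeOH) and 369.99 CPM (fresh) in the other cells. Its log2 ratio was 0.90 in MeOH cells, short of the threshold, and 1.27 in fresh cells. Its counterpart Syp, high in late-born neurons, was at 1568 (MeOH) and 1291 CPM (fresh) in cluster 13, against 1547 (MeOH) and 1282 CPM (fresh) in the other cells. Syp thus had nearly equal levels in cluster 13 and the other cells, with log2 ratios of 0.02 in MeOH and 0.01 in fresh cells.

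The lower genes were led by pros (3R: 11328480 to 11407627, plus strand), a homeodomain gene that drives neural precursors into differentiation and is on in young neurons. It was at 858 (MeOH) and 61.0 CPM (fresh) in cluster 13, against 17344 (MeOH) and 11562 CPM (fresh) in the other cells. Of the 386 pros UMIs in the MeOH cells of the cluster, 204 and 68 came from 2 cells, and without these cells the level was 268 CPM. No fresh cell held more than 3 pros UMIs. A level over 5000 CPM of pros was found in 1 of 68 MeOH and 0 of 69 fresh cells of the cluster, and 0 of 69 allows a share of up to 4.35%, taken as 3 of 69 cells. Among the other cells 951 of 1643 MeOH cells (57.9%) and 845 of 1633 fresh cells (51.7%) exceeded it. A low pros level was not particular to cluster 13. In cluster 3, described below, pros was at 2215 (MeOH) and 333 CPM (fresh). The log2 ratio of cluster 13 over cluster 3 was -1.36 (MeOH) and -2.27 (fresh). Cluster 33, at 517 (MeOH) and 837 CPM (fresh), and cluster 34, at 752 (MeOH) and 621 CPM (fresh), lay below cluster 13 in MeOH cells only.

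The BTB zinc finger gene chinmo (2L: 1651258 to 1704682, plus strand), a marker of birth time in mushroom body neurons, was at 147 (MeOH) and 35.7 CPM (fresh) in cluster 13, against 1777 (MeOH) and 1255 CPM (fresh) in the other cells. It had a UMI in 27 MeOH and 21 fresh cells of the cluster, 39.7% (MeOH) and 30.4% (fresh), and in 58.3% (MeOH) and 41.6% (fresh) of glia. The share after thinning was 17.6% (MeOH) and 10.1% (fresh) in cluster 13, 35.9% (MeOH) and 10.4% (fresh) in glia and 87.0% (MeOH) and 80.0% (fresh) in the other cells. The share of cluster 13 cells with chinmo was thus no higher than in glia, while most other cells carried it. Whether these UMIs are background was not tested, and 4 MeOH cells and 1 fresh cell of the cluster held at least 5. No cell of cluster 13 reached the median level of the other cells for chinmo.

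The ELAV family gene fne was at 1265 (MeOH) and 642 CPM (fresh) in cluster 13, against 6556 (MeOH) and 3387 CPM (fresh) in the other cells, and it too reached the median of the other cells in no cell of the cluster. The zinc finger gene jim was at 1419 (MeOH) and 665 CPM (fresh) in cluster 13, against 9889.5 (MeOH) and 6961 CPM (fresh) in the other cells. The zinc finger gene dati was at 24.5 (MeOH) and 17.9 CPM (fresh) in cluster 13, against 531 (MeOH) and 385 CPM (fresh) in the other cells. All of these were lower in 5 of 5 lines, with no overlap. The noncoding RNA gene CR43283, from the list of genes of newborn neurons, was at 318 (MeOH) and 66.2 CPM (fresh) in cluster 13, against 3105 (MeOH) and 2061 CPM (fresh) in the other cells. Rbp6, an RNA-binding protein gene of the Musashi family, was at 371 (MeOH) and 248 CPM (fresh) in cluster 13, against 1449.6 (MeOH) and 1094 CPM (fresh) in the other cells. They were lower in 5 of 5 lines as well. Cluster 3, described below, shared much of this. Against it the log2 ratio was -0.49 (MeOH) and -0.30 (fresh) for fne and -0.50 (MeOH) and -0.07 (fresh) for jim. For dati it was -0.90 (MeOH) and -0.21 (fresh), and for CR43283 -1.05 (MeOH) and -0.28 (fresh). Of the genes of this paragraph so far, only Rbp6 was lower than in cluster 3 in both libraries, at -1.21 (MeOH) and -1.11 (fresh). The T-box gene bi, CG11030 and CG7971 had log2 ratios between -2.59 and -1.73, both from CG7971.

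**Figure D4:**
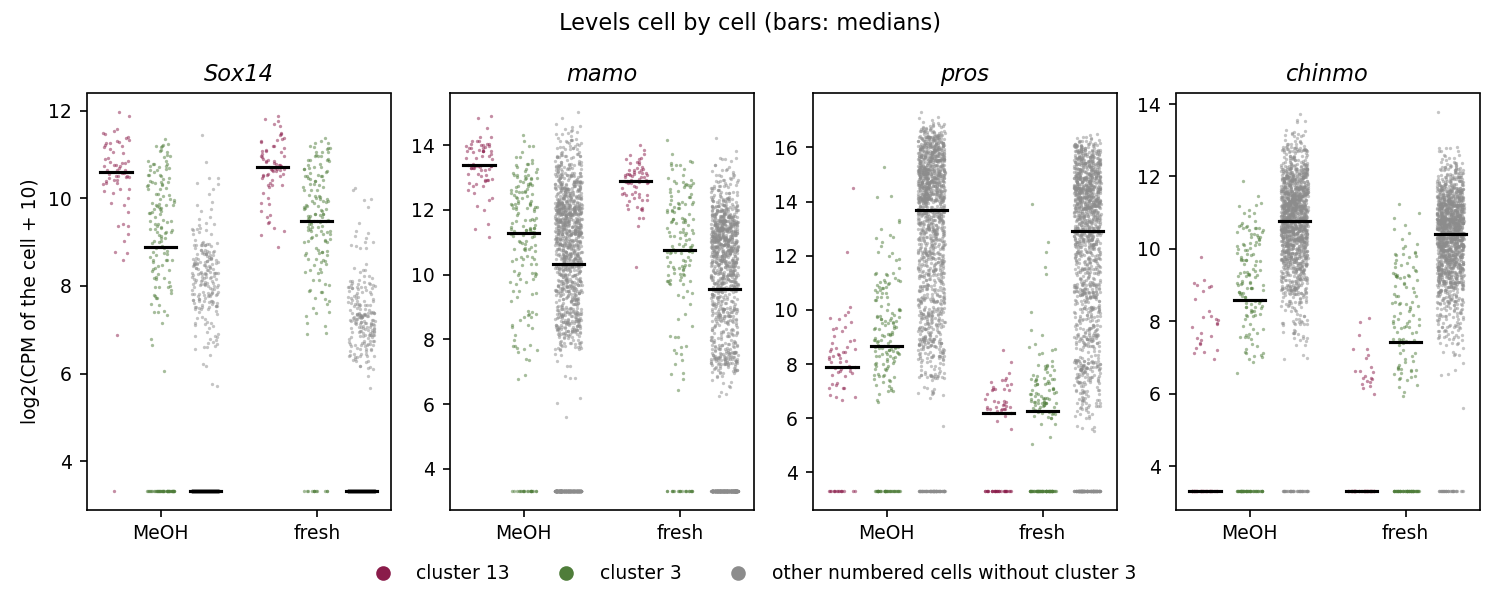
Level of Sox14, mamo, pros and chinmo in single cells (log2 of the CPM of the cell plus 10, vertical axis) in cluster 13, cluster 3 and other numbered cells without cluster 3, for the MeOH and fresh libraries. Each point is a cell, bars are medians, and points on the lowest level have no UMI. Cells of cluster 13 sit high for Sox14 and mamo and low for pros and chinmo, except 1 MeOH cell over 5000 CPM of pros.

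By line, pros stood apart in DGRP-502, at 4257 CPM in cluster 13 against 16731 CPM in the other cells. Both cells with most pros UMIs came from DGRP-502 and held 272 of its 295 pros UMIs, and without them the level of this line was 507 CPM. In the other 4 lines it was at 166 to 316 CPM in cluster 13 against at least 15944 CPM in the other cells. Of the 67 named genes that were higher or lower in both libraries, 52 kept that direction in 5 of 5 lines. These lines hold most of the MeOH cells on which the genes were called, so this count supports nothing by itself.

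**Figure D5:**
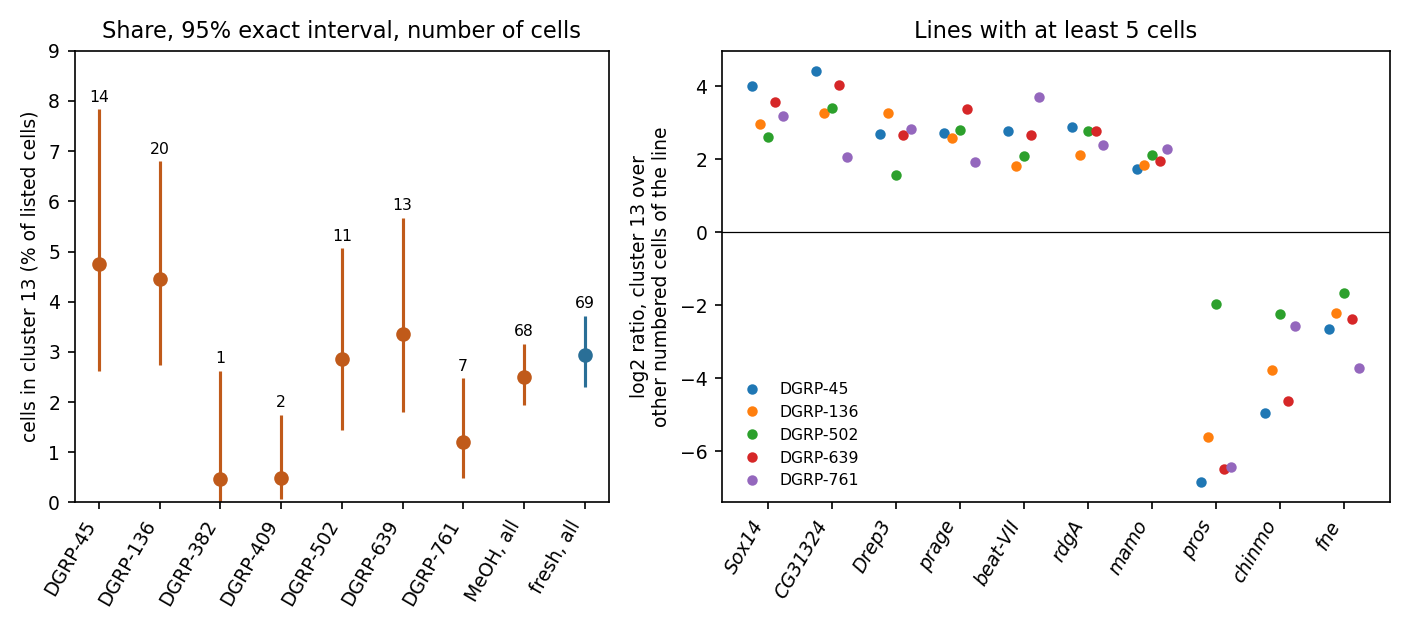
Left, the share of listed cells in cluster 13 by line and by library (percent, exact 95% intervals, number of cells above), from 0.476% in DGRP-382 to 4.75% in DGRP-45. Right, the log2 ratio of cluster 13 over other numbered cells within each of the 5 lines with at least 5 cells, for the 6 markers, mamo, pros, chinmo and fne, where the first 7 genes are above 0 and the last 3 below 0 in all 5 lines.

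Cluster 3, with 347 cells, was the most like cluster 13. The Pearson correlation of log2(CPM + 10) across the 4246 genes, which are not independent and share their libraries, was 0.920 with cluster 3, 0.900 with cluster 0 and 0.866 with cluster 7. In the deposited clustering at resolution 1.5, all 137 cells of cluster 13 and all 347 of cluster 3 formed 1 cluster of 484 cells, and the annotation uses resolution 2. Against cluster 3, 4228 genes could be compared, of which 60 (1.42%) were higher in cluster 13 in both libraries and 147 (3.48%) were lower. Of the 149 genes higher than in the other cells, 38 were also higher than in cluster 3, and of the 82 lower genes 24 were also lower than in cluster 3. The other cells include cluster 3, so these counts are not independent.

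Among the markers, CG31324, prage and rdgA were higher than in cluster 3 in both libraries. CG31324 was at 547 (MeOH) and 709.5 CPM (fresh) in cluster 13, against 59.9 (MeOH) and 130.2 CPM (fresh) in cluster 3. Sox14 was at 1574 (MeOH) and 1677 CPM (fresh) in cluster 13, against 638 (MeOH) and 889 CPM (fresh) in cluster 3, with log2 ratios of 1.29 in MeOH and 0.91 in fresh cells. beat-VII was at 314 (MeOH) and 425 CPM (fresh) in cluster 13, against 221 (MeOH) and 269.6 CPM (fresh) in cluster 3, with log2 ratios of 0.49 in MeOH and 0.64 in fresh cells. Sox14, Drep3 and beat-VII therefore did not pass 1 against cluster 3 in both libraries.

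Of the birth-time genes, mamo was higher than in cluster 3, with log2 ratios of 1.64 in MeOH and 1.32 in fresh cells. Syp was higher too, at 1568 (MeOH) and 1291 CPM (fresh) in cluster 13, against 693 (MeOH) and 586 CPM (fresh) in cluster 3. chinmo was lower, with log2 ratios of -1.95 in MeOH and -2.58 in fresh cells, and br was lower, with -1.27 in MeOH and -1.02 in fresh cells. Of the 18 compared genes of the ecdysone list 3 were higher than in cluster 3 and 1 was lower (br). Among all genes compared with cluster 3, 1.42% were higher and 3.48% lower. Eip75B had log2 ratios of 1.14 in MeOH and 1.04 in fresh cells, the headcase gene hdc 1.06 in MeOH and 1.29 in fresh cells, and the nuclear receptor gene Hr4 1.36 in MeOH and 1.83 in fresh cells. Eip74EF had similar levels, at 474 (MeOH) and 459 CPM (fresh) in cluster 13, against 492 (MeOH) and 407 CPM (fresh) in cluster 3. EcR was at 291 (MeOH) and 157 CPM (fresh) in cluster 13, against 472 (MeOH) and 381 CPM (fresh) in cluster 3, and only the fresh log2 ratio of -1.23 passed the threshold.

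Of the cell death list, 4 of 9 compared genes were higher than in cluster 3 and none was lower, against 1.42% higher and 3.48% lower among all compared genes. None of these 4 was higher than in the other cells. The caspase gene Drice was at 55.6 (MeOH) and 42.0 CPM (fresh) in cluster 13, against 21.5 (MeOH) and 15.7 CPM (fresh) in cluster 3. The caspase gene Dcp-1 was at 60.03 (MeOH) and 63.1 CPM (fresh) in cluster 13, against 24.3 (MeOH) and 22.7 CPM (fresh) in cluster 3. The genes rpr and skl, whose products release caspases from their inhibitors, had log2 ratios against cluster 3 of 1.13 in MeOH and 1.51 in fresh cells for rpr and 1.24 in MeOH and 1.65 in fresh cells for skl.

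Most synaptic genes of mature neurons were lower than in cluster 3. All 12 on the list could be compared, 8 were lower (nSyb, Syt1, Syx1A, Snap25, cpx, para, Rdl and futsch) and none was higher, against 3.48% lower and 1.42% higher among all genes. The vesicle gene nSyb was at 273 (MeOH) and 385 CPM (fresh) in cluster 13, against 785 (MeOH) and 1257 CPM (fresh) in cluster 3. Against the other cells the list showed 1 gene higher (IA-2) and 1 lower (cpx), where 3.51% were higher and 1.93% lower among all compared genes. Its median log2 ratios were 0.02 in MeOH and 0.18 in fresh cells. The dense-core vesicle gene IA-2 was at 3282 (MeOH) and 1575 CPM (fresh) in cluster 13, against 874 (MeOH) and 520.3 CPM (fresh) in the other cells. The IA-2 level of cluster 3 lay above that of cluster 13, at 4224 (MeOH) and 2781 CPM (fresh). The complexin gene cpx, a regulator of vesicle fusion, was at 158 (MeOH) and 219.7 CPM (fresh) in cluster 13, against 449 (MeOH) and 543 CPM (fresh) in the other cells. Against deep cells alone the log2 ratio of IA-2 in fresh cells was 0.54, and against all other listed cells that of cpx was -0.90 in MeOH and -0.77 in fresh cells.

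Most glycolysis genes were also lower than in cluster 3. This list of 14 genes was drawn up after the low level of Ald had been seen, so its count supports nothing by itself. Of 13 compared genes 12 were lower and none was higher, Eno being the exception, and the median log2 ratio was -2.09 in MeOH and -1.84 in fresh cells. Over all 4228 genes the medians were 0.03 (MeOH) and 0.01 (fresh), with 3.48% lower and 1.42% higher.

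The aldolase gene Ald was at 138 (MeOH) and 111 CPM (fresh) in cluster 13, against 2369 (MeOH) and 1960.5 CPM (fresh) in cluster 3. The phosphoglycerate mutase gene Pglym78 was at 48.9 (MeOH) and 41.0 CPM (fresh) in cluster 13, against 689.5 (MeOH) and 626 CPM (fresh) in cluster 3. The glyceraldehyde-3-phosphate dehydrogenase gene Gapdh1 was at 296 (MeOH) and 403 CPM (fresh) in cluster 13, against 957 (MeOH) and 959 CPM (fresh) in cluster 3. Against the other cells 4 of the 13 were lower (Hex-A, Ald, Pglym78 and ImpL3) and none was higher. Among all compared genes 1.93% were lower and 3.51% higher. When cluster 3 was left out of the other cells, the log2 ratio of Ald was -1.29 in MeOH and -1.11 in fresh cells and still past the threshold. That of Pglym78 was then -0.70 in MeOH and -0.29 in fresh cells, that of ImpL3 -0.41 in MeOH and -0.63 in fresh cells, and that of Hex-A -0.94 in fresh cells.

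The series concerns the voltage-gated sodium channel gene para (X: 16455027 to 16533096, minus strand). It was at 178 (MeOH) and 99.9 CPM (fresh) in cluster 13, against 139 (MeOH) and 63.9 CPM (fresh) in the other cells, with intervals of 141 to 221 (MeOH) and 80.8 to 122 CPM (fresh) in cluster 13, and did not pass the threshold. The para level of cluster 13 was the third highest of 26 clusters in both libraries, after cluster 33, with 958 (MeOH) and 447 CPM (fresh), and cluster 3, with 428 (MeOH) and 237 CPM (fresh). A para UMI was present in 38 MeOH and 43 fresh cells of the cluster. The share after thinning was 25% (MeOH) and 17.4% (fresh) in cluster 13, 3.88% (MeOH) and 1.30% (fresh) in glia and 16.3% (MeOH) and 7.72% (fresh) in the other cells. Against deep cells alone the log2 ratio of para was -0.14 in MeOH and -0.10 in fresh cells. None of the 5 compared sodium channel genes, the 6 calcium channel genes, the 9 nicotinic receptor genes and the 11 GABA and glutamate receptor genes was higher or lower in both libraries.

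Of 11 compared potassium channel genes, Elk and SLO2 were higher and none was lower, against 3.51% higher and 1.93% lower among all compared genes. SLO2, a sodium-activated potassium channel gene, was at 120.1 (MeOH) and 106 CPM (fresh) in cluster 13, against 22.5 (MeOH) and 13 CPM (fresh) in the other cells. Of 12 compared amine receptor genes 4 were higher (the dopamine receptor gene Dop1R2, the serotonin receptor gene 5-HT7 and the octopamine receptor genes Oamb and Octbeta1R) and none was lower, against 3.51% higher and 1.93% lower among all compared genes. Each of these 4 calls ended in at least 1 library without the cell holding most UMIs of the gene. The log2 ratio was then 0.25 in MeOH cells for Dop1R2, and 0.78 in fresh cells for Octbeta1R. It was 0.98 in MeOH and 0.97 in fresh cells for 5-HT7, and 0.61 in MeOH and 0.95 in fresh cells for Oamb. None of the 4 was higher than in cluster 3. All 4 were found in less than 50% of the cells of the cluster, from 9 MeOH cells for Dop1R2 to 32 fresh cells for Octbeta1R.

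Of 40 compared adhesion and guidance genes only Fas1 was higher, at 278 (MeOH) and 202 CPM (fresh) in cluster 13, against 106 (MeOH) and 62.3 CPM (fresh) in the other cells. Of 21 compared dpr and DIP genes, cell surface proteins that pair at synapses, only dpr17 was higher, at 225 (MeOH) and 217 CPM (fresh) in cluster 13, against 82.4 (MeOH) and 55.0 CPM (fresh) in the other cells. By line dpr17 was above the other cells in 4 of 5 lines, and the classes overlapped. In cluster 3 dpr17 was at 254 (MeOH) and 141 CPM (fresh), with log2 ratios against it of -0.17 in MeOH and 0.58 in fresh cells. Fas1 and dpr17 did not pass the threshold against cluster 3. Neither list had a lower gene, and among all compared genes 3.51% were higher and 1.93% lower. None of 9 compared genes of Kenyon cells, the intrinsic neurons of the mushroom body, and none of 5 compared Hox genes, which set segment identity, was higher or lower. The small heat shock protein gene Hsp67Bc was at 2808 (MeOH) and 3669.5 CPM (fresh) in cluster 13. In the other cells it was at 668 (MeOH) and 1346 CPM (fresh). Of 8 compared heat shock genes it alone passed the threshold, against 3.51% higher and 1.93% lower among all compared genes.

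Transmitter genes divided the cluster. The vesicular glutamate transporter gene VGlut had at least 5 UMIs in 6 MeOH and 11 fresh cells. Of these, 1 of 6 MeOH and 1 of 11 fresh cells also had a UMI of VAChT or ChAT, the genes of acetylcholine loading and synthesis, against 33 of 62 MeOH and 38 of 58 fresh cells among the rest of the cluster. Counts of 5 or more VGlut UMIs and UMIs of the acetylcholine genes thus seldom met in a cell, while 29 MeOH and 20 fresh cells had neither. VAChT had a UMI in 28 MeOH and 35 fresh cells of the cluster and in 3.88% (MeOH) and 1.30% (fresh) of glia. VGlut had a UMI in 18 MeOH and 24 fresh cells of the cluster, 26.5% (MeOH) and 34.8% (fresh), and in 17.5% (MeOH) and 20.8% (fresh) of glia. After thinning the VGlut shares were 22.1% (MeOH) and 17.4% (fresh) in cluster 13 and 8.74% (MeOH) and 2.60% (fresh) in glia, and the VAChT shares 22.1% (MeOH) and 18.8% (fresh) in cluster 13 and 0.971% in MeOH glia.

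Of the remaining transmitter genes, the GABA synthesis gene Gad1 was lower and had 2 UMIs in each library. It was at 4.45 CPM (0.539 to 16.1) in MeOH and 2.10 CPM (0.255 to 7.59) in fresh cells of cluster 13, against 63.7 (MeOH) and 33.6 CPM (fresh) in the other cells. Tyrosine hydroxylase, encoded by ple, passed the threshold with all 22 MeOH UMIs in 1 cell and 30 fresh UMIs in 3 cells. Without that MeOH cell the ple log2 ratio in MeOH cells was -1.31. The monoamine transporter gene Vmat had a UMI in 3 MeOH and 8 fresh cells, and Tdc2 and SerT had none. A count of 0 allows a share of cells with a UMI of up to 4.41% (3 of 68 MeOH cells) and 4.35% (3 of 69 fresh cells), and says nothing of cells with fewer transcripts than were captured.

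Genes that mark lineages, most of them transcription factor genes, were mixed as well. Of 92 such genes, 2 (hth and jim) had a UMI in over 50% of the thinned cells of the cluster in both libraries, and 58 were under 5%. The LIM-homeodomain gene Lim1 had a UMI in 33.8% (MeOH) and 36.2% (fresh) of the thinned cells of the cluster. These shares were 41.2% (MeOH) and 26.1% (fresh) for zfh2, and 38.2% (MeOH) and 18.8% (fresh) for luna. Without thinning, at least 5 zfh2 UMIs were found in 8 MeOH and 17 fresh cells of the cluster. Since jim had a UMI in 96.5% (MeOH) and 93.8% (fresh) of thinned other cells and 69.9% (MeOH) and 54.5% (fresh) of thinned glia, and was lower in cluster 13, its share sets nothing apart. Of 46 compared genes of the list, 2 were higher (zfh2 and sca) and 10 were lower. The genes hth, Lim1 and luna were in neither set, so their shares do not set the cluster apart from the other cells. Among all compared genes 3.51% were higher and 1.93% lower. The gene sca does not encode a transcription factor. Without the cell holding most of its UMIs, sca was at log2 ratios of 0.92 in MeOH and 0.90 in fresh cells. Of the 10 lower genes, TfAP-2 (-0.92 in MeOH and -0.74 in fresh cells), Ets65A (-0.56 in fresh cells), Pdp1 (-0.92 in MeOH cells), NK7.1 (-0.88 in fresh cells) and bi (-0.96 in fresh cells) were short of the threshold against deep cells alone. The zinc finger homeodomain gene zfh2 was at 278 (MeOH) and 177 CPM (fresh) in cluster 13, against 79.9 (MeOH) and 39.6 CPM (fresh) in the other cells, higher in 5 of 5 lines. Among the Sox genes SoxN was lower, at 151 (MeOH) and 68.3 CPM (fresh) in cluster 13, against 318 (MeOH) and 168 CPM (fresh) in the other cells, with log2 ratios of -0.83 in MeOH and -0.40 in fresh cells against deep cells alone. Sox15 and Sox100B had no UMI in cluster 13, where 3 UMIs would be 6.67 (MeOH) and 3.15 CPM (fresh).

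The noncoding RNAs roX1 and roX2 coat the X chromosome in males. Cells with at least 500 CPM of roX1 and roX2 together were 35 of 68 MeOH (51.5%) and 40 of 69 fresh cells (58.0%) in cluster 13, against 53.3% (MeOH) and 54.2% (fresh) of the other cells. Between 250 and 1000 CPM, near that limit, lay 8 MeOH and 0 fresh cells of cluster 13. roX2 alone was lower, at 267 (MeOH) and 151 CPM (fresh) in cluster 13, against 598 (MeOH) and 645 CPM (fresh) in the other cells. Against deep cells alone its log2 ratio was -0.83 in MeOH and -0.99 in fresh cells, short of the threshold, and its levels overlapped between the classes across the 5 lines. roX1 was at 1256 (MeOH) and 1472 CPM (fresh) in cluster 13, against 1373 (MeOH) and 1516 CPM (fresh) in the other cells.

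Between the libraries, 236 of 4257 genes compared within cluster 13 (5.54%) passed 1 on the log2 scale, 144 higher and 92 lower in MeOH than in fresh cells. Of these, 57 did so in the same direction in the other cells. Single genes were ranked by the gap between the log2 ratio of MeOH over fresh cells in cluster 13 and that in the other cells. This left out genes of which 1 cell held over 25% of the UMIs of the cluster, such as pros, and genes under 10 UMIs by the mean of the libraries. The widest gap on the low side was -1.65, for CG14322. CG14322 was at 55.6 (MeOH) and 146 CPM (fresh) in cluster 13, against 59.9 (MeOH) and 42.8 CPM (fresh) in the other cells. The widest gap on the high side among these genes, 1.29, was that of the peptide receptor gene CCKLR-17D3, at 51.1 (MeOH) and 20.0 CPM (fresh) in cluster 13, against 16.9 (MeOH) and 22.2 CPM (fresh) in the other cells. Next on the low side came roq, Hasp, trn and NetB, and on the high side chinmo, clt, Rdh and CG32547. Apart from chinmo and trn in the other cells, these genes had levels under 200 CPM in all 4 classes.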

How the data were processed

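The deposited tables give UMI counts per gene and cell for 2 samples. Per the submitters' processing notes, Cell Ranger, Seurat and dm6 were used, with versions not given in the sources used here. The authors' deposited cell table gives each cell its line, clusters, annotation, UMI total and percent of mitochondrial UMIs, and a deposited score per cell for each axis of a tSNE map, which entered no value. Deposited UMI totals lay within 47 UMIs of the matrix sums. Of the barcodes in the matrices, the 2715 MeOH and 2341 fresh cells of that table were used, with no further filter.

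Here the counts were summed per library and class and turned into CPM, and log2 ratios used a pseudocount of 10 CPM. Genes were compared when the mean of the class levels reached 10 UMIs in cluster 13 in both libraries, and were called higher or lower at a log2 ratio past 1 or -1 in both. No test was made, since each group is 1 library and the clusters were built from the same genes. For shares of cells each cell was thinned to 2000 UMIs (seed 13), which kept every cell. Lines with at least 5 cells were compared. Intervals are 95% and cover counting error only. Alternatives are given in the closing section.

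The cluster, the 30 gene lists and the tests were chosen with earlier results of these data known. The text names the markers, the members of the lists past the threshold, and the genes with the largest log2 ratio, by the smaller value of both libraries, in each direction among those without a single cell holding over 25% of the UMIs; other genes named by their values were chosen after these were seen. Of 17473 gene rows, 13811 matched a symbol in the RefSeq gene table and 17423 a symbol or synonym. All 490 list entries matched, 17 of them through a synonym. The scripts were tested on simulated counts. Python 3.11.15, numpy 2.4.6, scipy 1.17.1, pandas 2.3.3 and matplotlib 3.10.9 were used.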

Additional observations from a re-analysis of the deposited data

Results flagged for a closer look

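Across the 5 lines of the MeOH library with at least 5 cells of cluster 13, a line was taken to stand apart when its gap to the nearest line was more than 0.71 of the whole range. The levels of every gene of the naming rule, the median UMIs per cell and, over all 7 lines with the limit for that number, the share of cells in cluster 13 were searched in this way, 79 sets in all. Chance flags about 1 in 20 sets of normally distributed values of equal precision. The lines differ in their number of cells and some levels rest on few UMIs, so that rate need not hold here. Of the 79 sets 11 were past the limit, which is given as a description.

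In DGRP-502, which contributed 11 cells, 4 genes were highest. pros was at 4256.7 CPM, with a gap of 0.963 of the range, and 272 of its 295 UMIs lay in 2 cells. Eip93F was at 129.86 CPM, with a gap of 0.95 of the range. CR43283 was at 1010.1 CPM, with a gap of 0.804 of the range. Ilp5 was at 28.859 CPM, from 2 UMIs, with a gap of 0.777 of the range.

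In DGRP-761, which contributed 7 cells, 5 genes were highest and 1 was lowest. mamo was at 16326 CPM, with a gap of 0.789 of the range. beat-VII was at 745.35 CPM (0.776 of the range). Drep1 was at 456.83 CPM (0.828 of the range). Pdp1 was at 408.74 CPM (0.736 of the range). Hasp was at 120.22 CPM, from 5 UMIs (0.851 of the range). Ctl2, the lowest of the lines, was at 120.22 CPM (0.752 of the range). In DGRP-136, ple was at 141.8 CPM, with all 22 UMIs in 1 cell and none in the other 4 lines.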

How the results depend on the processing

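The count of 149 higher genes became 67 with a pseudocount of 50 CPM and 96 against deep cells alone. The count of 82 lower genes became 192 against all other listed cells, 36 with a pseudocount of 50 CPM and 48 where 30 UMIs were required. After thinning to 2000 UMIs it was 41 (of 1718 genes then compared). Without the cluster 13 cell holding most UMIs of each gene it was 126. No cell was taken from the other cells there, so that setting mostly lowers log2 ratios. Cluster 13 was 3.97% (MeOH) and 4.05% (fresh) of numbered cells. The count of 236 genes past 1 between the MeOH and fresh cells of cluster 13 became 56 with a pseudocount of 50 CPM. Of 1224 recomputed log2 ratios of named genes, 2 reversed a direction that had passed the threshold, namely ple in MeOH cells without its top cell (-1.31) and CCAP in fresh cells against other cells without cluster 3 (0.28). The sign of para, which had not passed it, also turned, at -0.14 (MeOH) and -0.10 (fresh) against deep cells. Of all these ratios but the 2 reversed, 589 moved outside their counting interval and 633 did not, and 114 ended short of a threshold the gene had passed. With a pseudocount of 50 CPM these included Elk, Hr39, Drep1, nub, scro and Gad1 in at least 1 library. Leaving cluster 3 out of the other cells, and comparing with deep cells, were chosen after seeing the data. With 1 library per group no replicate could be left out. No paired analysis was possible because each group is 1 library and no test was made.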

Other observations

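Neuropeptide genes in cluster 13 rested on few cells. Of 33 genes on the list 13 had enough UMIs, 1 was higher than in the other cells (spab) and 3 were lower (Ilp3, Ilp5 and CCAP), against 3.51% higher and 1.93% lower among all compared genes. When cluster 3 was left out of the other cells none of the 3 passed the threshold, with log2 ratios of -0.01 in MeOH and -0.07 in fresh cells for Ilp3, -0.65 in MeOH and -0.20 in fresh cells for Ilp5, and -0.45 in MeOH and 0.28 in fresh cells for CCAP. Without its top cell spab was at 0.94 in MeOH cells. The next 3 genes were picked after their values had been seen. FMRFa had 4 UMIs in 3 MeOH cells and 257 UMIs in 1 fresh cell of cluster 13. CCHa2 had 139 UMIs in 3 MeOH cells. Dh31 had 58 UMIs in 12 MeOH and 464 UMIs in 14 fresh cells. The gene CG17124, also picked after its values had been seen, had a UMI in 67 MeOH and 69 fresh cells of cluster 13 and was at 8680.4 (MeOH) and 7272 CPM (fresh) in cluster 13, against 1968 (MeOH) and 1251 CPM (fresh) in the other cells. It was at 8680.4 (MeOH) and 7272 CPM (fresh) in cluster 13, against 3293 (MeOH) and 3041 CPM (fresh) in cluster 3, and cluster 13 had the highest level of all 26 numbered clusters in both libraries.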
